A study of Mus musculus with 6 samples.

Results

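The 40 genes described here encode NRF2 and its inhibitor KEAP1, the enzymes that make, recycle and use glutathione, the cystine importer, the enzymes that make and degrade cysteine, and the main antioxidant enzymes. They were taken by name, with earlier results of these data known, so counts of calls among them are a description and not a test. All 40 were found among the 55401 genes of the count files after matching Ensembl identifiers to symbols. Of these, 39 passed the filter on low counts, as did 18539 genes in all. The exception was Cbs, which encodes cystathionine beta-synthase, the entry enzyme of the transsulfuration pathway. It had 2 and 4 counts with the empty vector, 6 in TC and 2, 0 and 6 with ATA. The 0 allows up to 3 counts, and Cbs was not tested.

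The libraries were made from NIH3T3 cells, an immortalized line of mouse embryonic fibroblasts, by bulk RNA-Seq of poly(A)-selected RNA. The EV group (2 libraries) carried an empty vector and received the vehicle DMSO. The TC group (1 library) stably expressed TAZ-CAMTA1 (TC), the fusion of a transcriptional coactivator of TEAD factors with CAMTA1 that is found in epithelioid hemangioendothelioma, and also received DMSO. The TC + ATA group (3 libraries) expressed the same fusion and received 10 μM aurintricarboxylic acid (ATA), the compound that the study examined as a disruptor of the TAZ-TEAD interaction. Cells of all 3 groups were seeded for 16 h and then treated for 48 h. The sources used here do not say whether the TC line was 1 clone, nor whether replicates were separate cultures, so p-values measure the spread between these libraries only. Because TC is a single library, neither comparison that includes it can be checked against a replicate of TC.

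NRF2 is a transcription factor that KEAP1 normally marks for degradation. When oxidants or electrophiles modify KEAP1, NRF2 accumulates, pairs with a small MAF protein and binds antioxidant response elements (AREs) near genes for glutathione synthesis, thioredoxin reduction, heme degradation and conjugation of electrophiles. Its activity is set largely at the protein level, which RNA counts do not measure. Glutathione is built from glutamate, cysteine and glycine, and cysteine is usually the limiting part. Cells import cysteine as cystine or make it from homocysteine by transsulfuration, and they remove it by oxidation towards taurine and sulfate.

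The letters of the ARE core (TGACNNNGC, searched on both strands) were looked for in the RefSeq promoters of build GRCm38.p6, which run from 250 bases before to 50 bases after each annotated start. A promoter was held for 32 of the 40 genes, and 9 of the 32 had at least 1 match, against 14.0% of all 27025 genes with a promoter in the same table. No promoter entry was used for Hmox1, Gclc, Gsr, Cdo1, Cth, Gsta4, Prdx6 and Sod3. The windows below are those of the genes with a match, shown because the ARE is the sequence through which NRF2 acts, with the core in capitals and read 5′ to 3′ on the strand that carries it.
Nfe2l2, chr2:75704885-75704913, minus strand: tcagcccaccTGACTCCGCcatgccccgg
Gclm, chr3:122245413-122245441, minus strand: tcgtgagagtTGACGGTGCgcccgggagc
Txnrd1, chr10:82859104-82859132, minus strand: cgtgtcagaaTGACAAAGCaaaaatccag
Srxn1, chr2:152105542-152105570, minus strand: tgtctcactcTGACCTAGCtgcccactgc
Prdx1, chr4:116685456-116685484, minus strand: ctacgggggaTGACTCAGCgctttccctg
Mgst1, chr6:138140461-138140489, minus strand: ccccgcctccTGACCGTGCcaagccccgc
Gstm5, chr3:107895802-107895830, plus strand: caccgcccacTGACCACGCggagggcggg
Sod1, chr16:90220696-90220724, minus strand: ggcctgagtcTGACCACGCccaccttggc
Mt2, chr8:94172529-94172557, plus strand: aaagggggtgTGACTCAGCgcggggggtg
The core began 240 bases before the start of Nfe2l2, 134 before that of Gclm, 92 before 1 of the 3 starts of Txnrd1, and 29 bases after the start of Srxn1. The cores of Prdx1 and Mt2 also spell the AP-1 motif TGACTCA, and the Gclm core overlaps a match to the metal response element. A match is a run of letters, and binding was not measured.

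A second motif was searched because the fusion acts through TEAD factors. The TEAD motif GGAATG had a match in the promoters of 2 of the 32 genes, Gstm2 and Gpx8, against 16.6% of all genes. Gstm2 had 2 matches, beginning 207 and 114 bases before its start, and they are printed because Gstm2 was the only one of the 40 genes called between TC + ATA and TC.
Gstm2, chr3:107986612-107986637, plus strand: ataaaagatgGGAATGggctagcacc
Gstm2, chr3:107986519-107986544, minus strand: tccttcaactGGAATGtctgaaattt
The metal response element (TGCACNC or TGCGCNC, both strands) had a match in 10 of the 32 genes, among them Mt1 and Mt2, against 28.2% of all genes.

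The libraries held between 58471484 and 74413193 counts (median 71053010), and CPM is the count of a gene scaled to the TMM-normalized library total. All 8 fibroblast markers were counted in every library, with a summed level of 14283 to 19213 CPM. In TC versus EV, 2 of these 8 were called higher and 2 lower. Col1a1 and Vim had log2 fold changes of 0.53 and 0.64, and Fn1 and Thy1 had −0.83 and −1.47. The 5 epithelial markers summed to at most 0.494 CPM and the 3 hepatocyte markers to at most 0.197 CPM. The 4 endothelial markers summed to between 1.51 and 3.44 CPM and the 4 blood markers to between 6.62 and 17.5 CPM. Of the endothelial markers only Cdh5 was called in TC versus EV, as higher (log2 fold change 1.55, edgeR adjusted p = 0.0385). Within the blood list Lyz2 rose from 0.495 and 0.249 CPM in EV to 5.66 CPM in TC (log2 fold change 3.92, edgeR adjusted p = 1.09e-05) and had 8.94, 9.59 and 8.40 CPM with ATA. The other 3 blood markers, Ptprc, Cd68 and Hbb-bs, were not called and had log2 fold changes of −0.44, −0.22 and −0.41. The part of these markers in the results was not tested, and in bulk samples fewer cells of a type and less RNA per cell cannot be told apart. The EV libraries stood further apart than the TC + ATA libraries did. The chi-square statistic of the counts per degree of freedom was 61.3 for the EV pair and between 5.86 and 6.61 for the TC + ATA pairs.

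In most of the 40 genes EV 1 was the higher library. It was above EV 2 in 31 of the 34 genes with a mean of at least 5 CPM (91.2%), against 52.1% of 10423 genes at that level with an annotated length. The median log2 ratio of EV 1 to EV 2 was 0.22 over the 34 genes and 0.01 over all genes. Among genes with under 2000 exonic bases, EV 1 was higher in 14 of 14 of these genes and in 85.2% of all genes, whereas among longer genes it was higher in 17 of 20 of these genes and in 46.7% of all genes. Since 14 of the 34 genes are short in this sense, fold changes without EV 1 or without EV 2 are given for many genes. They are given mainly where such a fit changes a call or moves a called value by over 1.5 times. The cause of this difference was not tested.

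**Figure D1:**
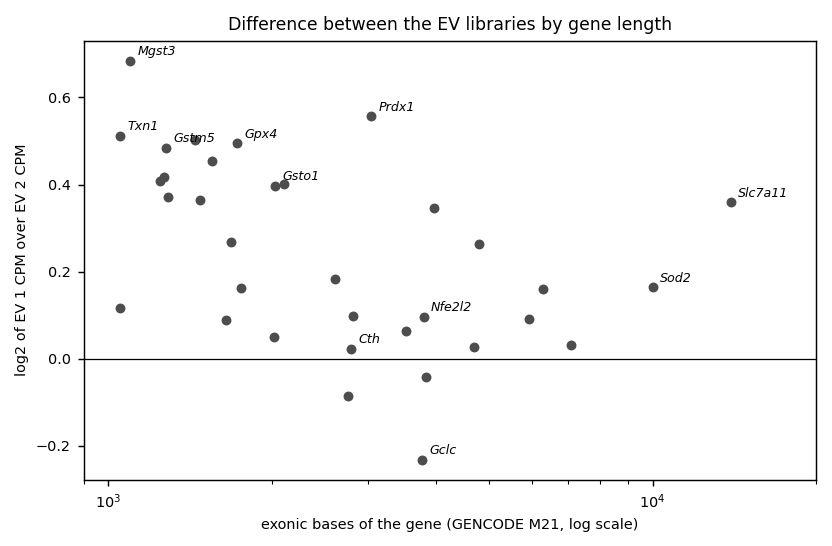
Each point is 1 of the 34 genes with a mean of at least 5 CPM. The x axis is the exonic length in bases (log scale) and the y axis is the log2 ratio of the CPM in EV 1 to that in EV 2. All 14 genes under 2000 bases lie above 0, and of the 20 longer genes 17 do.

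In TC versus EV, the question was how expression of the fusion changed the level of each gene. At an adjusted p of at most 0.05 (edgeR's quasi-likelihood test, Benjamini-Hochberg over all 18539 genes), 17 of the 39 genes rose and 6 fell, where 14.8% of all genes tested rose and 13.2% fell (28.0% in either direction). Changes of at least 1 on the log2 scale were found for 11 of the 39 genes, against 9.64% of all genes, and 5 passed the limit of 2, against 3.64%. Since called genes are more frequent among well-expressed genes, the same count was taken above a mean of 5 CPM, where 22 of 34 of the genes were called against 39.7% of 10424 genes. The median log2 fold change of the 39 genes was 0.30, and that of all genes was −0.03.

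Fits without EV 1 or without EV 2 leave a single EV library and called more of all genes, in both directions. Counts of calls in them are not set beside the main counts here. Of the 9 genes with a match to the ARE core, Nfe2l2, Gclm, Srxn1 and Txnrd1 rose, Gstm5 fell, and Prdx1, Mgst1, Sod1 and Mt2 were not called. Over the 39 genes, with or without a match, 17 rose and 6 fell (59.0% called, against 28.0% of all genes tested). Whether genes with a match differed from the others was not tested.

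The 5 genes past the limit of 2 were Cth, Gsto1, Sod3 and Gsta4, which rose, and Cdo1, which fell. When libraries were scaled by their size only, the median of all genes in TC versus EV shifted by −0.11 and the split over all genes went from 2735 higher and 2456 lower to 2072 and 3159. Under that scaling 15 of the 39 genes were higher and 7 lower. The heat map of levels shows the 5 large changes as the darkest rows, already present in the TC library and kept in the TC + ATA libraries.

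**Figure D2:**
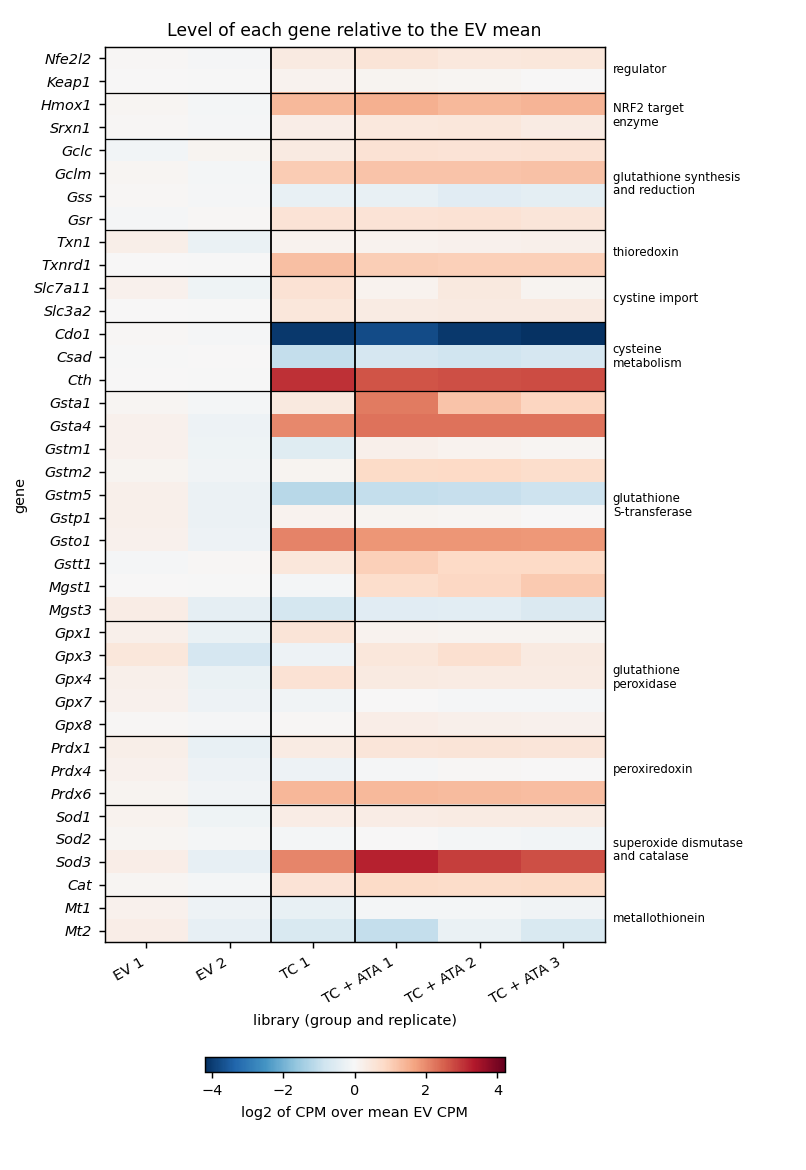
Rows are the 39 tested genes by role and columns are the 6 libraries. Color gives the log2 ratio of the CPM to the mean EV CPM. Cth, Sod3, Gsta4 and Gsto1 are the strongest increases and Cdo1 is the strongest decrease in the TC-expressing libraries, with a log2 fold change of −4.06 in TC versus EV.

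**Figure D3:**
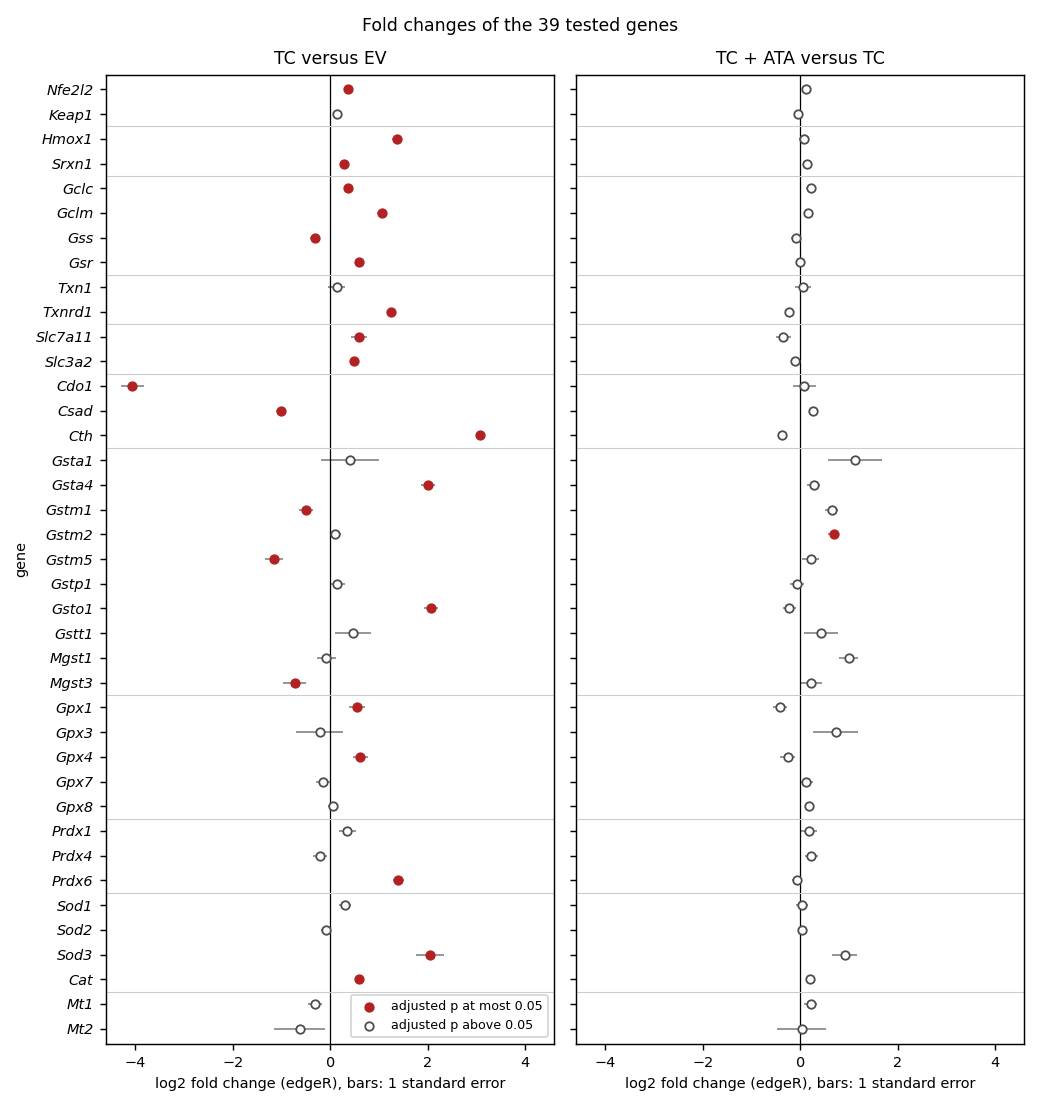
Points are log2 fold changes from edgeR and bars are 1 standard error, for TC versus EV on the left and TC + ATA versus TC on the right. Filled points passed an adjusted p of 0.05. There are 23 filled points on the left and 1, Gstm2, on the right.

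Of the regulators, Nfe2l2 rose slightly and Keap1 was not called. Positions are those of GENCODE M21 on GRCm38. Nfe2l2 (ENSMUSG00000015839, chromosome 2, 75675513 to 75704641), which encodes NRF2, had 99.6 (EV 1) and 93.1 CPM (EV 2) with the empty vector, 125 CPM in TC, and 139, 132 and 133 CPM with TC + ATA. Its log2 fold change was 0.37 (standard error, SE, 0.082, edgeR adjusted p = 0.00936). The TC library lay above both EV libraries, and ATA-treated libraries were higher still. The call was lost when only the EV and TC libraries were fitted (edgeR adjusted p = 0.131). Keap1 (ENSMUSG00000003308, chromosome 9, 21229730 to 21239361) had 50.6 and 49.7 CPM in EV, 54.9 CPM in TC, and 54.1, 53.7 and 51.1 CPM in TC + ATA. Its log2 fold change of 0.13 did not pass the test (edgeR adjusted p = 0.273) and was 0.024 with scaling by library size. An opposite-strand gene overlaps 510 of its 4693 exonic bases.

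Both NRF2 target enzymes outside the glutathione and thioredoxin systems rose. Hmox1 (ENSMUSG00000005413, chromosome 8, 75093621 to 75100589), which encodes the heme-degrading enzyme heme oxygenase, had 45.4 (EV 1) and 40.6 CPM (EV 2) with the empty vector, 111 CPM in TC, and 122, 110.1 and 116 CPM with TC + ATA. This was a rise of 2.57-fold (log2 fold change 1.36, SE 0.095, edgeR adjusted p = 1.15e-05). Every TC-expressing library lay above both EV libraries, and the TC library fell inside the range of the TC + ATA libraries. Srxn1, which encodes sulfiredoxin, the enzyme that restores overoxidized peroxiredoxins, rose by a log2 fold change of 0.29 (edgeR adjusted p = 0.0363).

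Of the 4 genes of glutathione synthesis and reduction, 3 rose and 1 fell. Gclm (ENSMUSG00000028124, chromosome 3, 122245557 to 122270732) encodes the modifier subunit of glutamate-cysteine ligase, the rate-limiting enzyme of glutathione synthesis, and had 89.6 (EV 1) and 80.1 CPM (EV 2) with the empty vector, 176 CPM in TC, and 197, 195 and 201 CPM with TC + ATA. It rose 2.08-fold (log2 fold change 1.05, SE 0.087, edgeR adjusted p = 3.22e-05). All 4 TC-expressing libraries lay above the EV libraries, with the TC library the lowest of the 4. The catalytic subunit gene Gclc rose less, by a log2 fold change of 0.37 (edgeR adjusted p = 0.0216), which was 0.25 without EV 1 and 0.49 without EV 2. Gss, which encodes glutathione synthetase, the last step, fell by a log2 fold change of −0.31 at the edge of the threshold (edgeR adjusted p = 0.0499). Genes on the opposite strand overlap 913 of the 5915 exonic bases of Gss. Of these genes, Acss2 had 12.3 and 9.44 CPM in EV and 5.56 CPM in TC, so a share of Gss reads from it cannot be told apart. Gsr, which encodes the reductase that recycles oxidized glutathione, rose by a log2 fold change of 0.58 (edgeR adjusted p = 0.000707).

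Of the thioredoxin pair, only the reductase passed the test. Txnrd1 (ENSMUSG00000020250, chromosome 10, 82833951 to 82897712), which encodes the cytosolic thioredoxin reductase, had 489.7 (EV 1) and 479 CPM (EV 2) with the empty vector, 1152 CPM in TC, and 1001, 976 and 973 CPM with TC + ATA. The rise was 2.38-fold (log2 fold change 1.25, SE 0.086, edgeR adjusted p = 1.08e-05). The TC library was the highest of the 6, and no TC-expressing library came near the EV level. Txn1, which encodes its substrate thioredoxin, had 1035 and 726 CPM in EV, 966 CPM in TC, and 986, 1006 and 1014 CPM in TC + ATA, so that the TC library lay between the EV libraries. The log2 fold change of Txn1 was 0.13 (edgeR adjusted p = 0.625), and it was 0.40 without EV 1 and −0.10 without EV 2. Whether the changes of Txnrd1 and Txn1 differ was not tested.

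Cystine import genes rose modestly. Slc7a11 encodes the transport subunit of the cystine/glutamate exchanger and Slc3a2 the heavy chain that carries it to the membrane. Their log2 fold changes were 0.59 (SE 0.16) and 0.48 (SE 0.081), at edgeR adjusted p-values of 0.0262 and 0.00219. Slc7a11 spanned 20.7 and 16.1 CPM in EV and 20.5, 24.6 and 20.1 CPM with ATA, which overlap, while the TC library held 27.8 CPM.

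The largest changes among the 40 genes lay in cysteine metabolism, in opposite directions. Cth (ENSMUSG00000028179, chromosome 3, 157894248 to 157925077) encodes cystathionine gamma-lyase, which releases cysteine from cystathionine in the last step of transsulfuration. It had 9.37 (EV 1) and 9.22 CPM (EV 2) with the empty vector, 78.6 CPM in TC, and 58.5, 60.8 and 61.6 CPM with TC + ATA. The rise in TC versus EV was 8.46-fold (log2 fold change 3.08, SE 0.081, edgeR adjusted p = 1.17e-07). The EV libraries differed by less than 2% in Cth, and the TC library was the highest of all 6.

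Cdo1 (ENSMUSG00000033022, chromosome 18, 46713193 to 46728395) encodes cysteine dioxygenase, which starts the oxidative removal of cysteine, and had 13.9 (EV 1) and 13.1 CPM (EV 2) with the empty vector, 0.807 CPM in TC, and 1.00, 0.818 and 0.762 CPM with TC + ATA. It fell 16.7-fold (log2 fold change −4.06, SE 0.23, edgeR adjusted p = 3.78e-06). These levels rest on 1041 and 998 counts in EV and on 53 to 58 counts in each TC-expressing library, and the groups did not overlap. Csad (ENSMUSG00000023044, chromosome 15, 102176999 to 102204724) encodes cysteine sulfinate decarboxylase, the step after Cdo1 on the way to taurine, and had 40.2 and 41.4 CPM in EV against 20.2 CPM in TC, with 24.9, 23.0 and 24.9 CPM in TC + ATA. It fell 2.02-fold (log2 fold change −1.01, SE 0.099, edgeR adjusted p = 8.88e-05). Every TC-expressing library lay below both EV libraries, with the TC library the lowest. Zfp740 on the opposite strand overlaps 278 of the 3831 exonic bases of Csad.

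**Figure D4:**
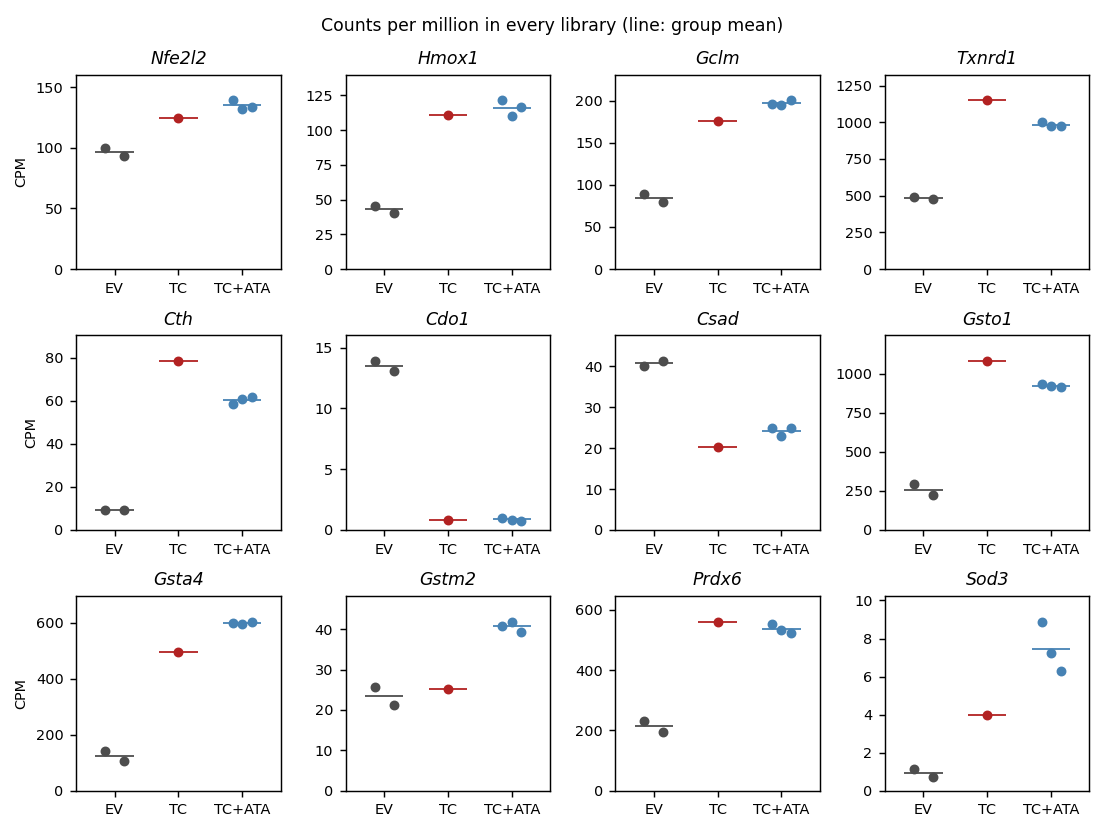
Each panel gives the CPM of 1 gene in all 6 libraries, from 0, with a line at the group mean. Cth rises from 9.22 to 9.37 CPM in EV to 78.6 CPM in TC, Cdo1 drops below 1.01 CPM in all TC-expressing libraries, and Gstm2 is highest in the 3 TC + ATA libraries.

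The 10 glutathione S-transferase genes split, with 2 higher, 3 lower and 5 not called in TC versus EV. Gsto1 (ENSMUSG00000025068, chromosome 19, 47854970 to 47864790) encodes the omega class enzyme, which reduces dehydroascorbate and mixed disulfides, and had 293 (EV 1) and 222 CPM (EV 2) with the empty vector, 1084 CPM in TC, and 935, 922 and 915 CPM with TC + ATA. It rose 4.21-fold (log2 fold change 2.07, SE 0.14, edgeR adjusted p = 9.44e-06). The change was 2.27 without EV 1 and 1.89 without EV 2, and all TC-expressing libraries stood at least 3 times above the higher EV library. Gsta4 (ENSMUSG00000032348, chromosome 9, 78182774 to 78209349), whose product conjugates aldehydes from lipid peroxidation, had 141 and 106 CPM in EV, 497 CPM in TC, and 600.4, 597 and 604 CPM in TC + ATA. It rose 4.02-fold (log2 fold change 2.01, SE 0.14, edgeR adjusted p = 1.2e-05).

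Of the mu class genes, which lie together on chromosome 3, Gstm5 and Gstm1 fell and Gstm2 was not called. Gstm5 (ENSMUSG00000004032, chromosome 3, 107895821 to 107898686) had 39.3 (EV 1) and 28.1 CPM (EV 2) with the empty vector, 15.1 CPM in TC, and 16.8, 17.3 and 18.3 CPM with TC + ATA. It fell by a log2 fold change of −1.16 (SE 0.18, edgeR adjusted p = 0.00158), with every TC-expressing library below both EV libraries. The opposite-strand gene 4933431E20Rik overlaps 178 of its 1278 exonic bases and had 6.60 and 9.06 CPM in EV and 1.74 CPM in TC, so a share of Gstm5 reads from that gene cannot be told apart. Gstm1 fell by a log2 fold change of −0.50 (edgeR adjusted p = 0.0246), which was −0.32 without EV 1 and −0.67 without EV 2. Gstm2 (ENSMUSG00000040562, chromosome 3, 107981702 to 107986453) had 25.7 and 21.3 CPM in EV, 25.2 CPM in TC, and 40.9, 41.9 and 39.3 CPM in TC + ATA, and its log2 fold change of 0.10 did not pass the test (edgeR adjusted p = 0.575) and was −0.026 without EV 2. The mu class copies are similar in sequence, and reads that match several of them can have been lost or shared in counting.

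Of the remaining transferases, Mgst3, a microsomal member, fell by a log2 fold change of −0.73 (edgeR adjusted p = 0.0498), which was −0.36 without EV 1 and −1.03 without EV 2. Gstp1, the pi class enzyme, Gstt1, the theta class enzyme, and Mgst1, a second microsomal member, had log2 fold changes of 0.14, 0.47 and −0.077, at edgeR adjusted p-values of 0.551, 0.398 and 0.818. Gsta1 (ENSMUSG00000074183, chromosome 9, 78230656 to 78242684), a low gene of the alpha class, had 0.414 (EV 1) and 0.367 CPM (EV 2) with the empty vector, 0.519 CPM in TC, and 1.78, 0.903 and 0.733 CPM with TC + ATA. The TC library lay just above the EV libraries for Gsta1, within an uncertain log2 fold change of 0.41 (SE 0.59).

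Peroxide-removing enzymes moved unevenly. Gpx1, the cytosolic glutathione peroxidase, and Gpx4, which reduces lipid hydroperoxides in membranes, rose by log2 fold changes of 0.54 and 0.62 (edgeR adjusted p = 0.0336 and 0.0193). Without EV 2 these were 0.31 and 0.39, and without EV 1 they were 0.80 and 0.87. The secreted Gpx3 and the endoplasmic reticulum members Gpx7 and Gpx8 had log2 fold changes of −0.22, −0.15 and 0.050, and none passed the test (adjusted p at least 0.503 from edgeR).

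Prdx6 (ENSMUSG00000026701, chromosome 1, 161240112 to 161251219), a peroxiredoxin that uses glutathione as its reductant, had 233 (EV 1) and 194 CPM (EV 2) with the empty vector, 561 CPM in TC, and 553, 532 and 524 CPM with TC + ATA. It rose 2.63-fold (log2 fold change 1.39, SE 0.11, edgeR adjusted p = 2.55e-05), and the TC-expressing libraries lay far above the EV libraries. Prdx1, the abundant cytosolic member, had a log2 fold change of 0.35 (edgeR adjusted p = 0.190), which was 0.65 without EV 1 and 0.099 without EV 2. Prdx4, the endoplasmic reticulum member, had −0.22 (edgeR adjusted p = 0.305), which was −0.015 without EV 1 and −0.41 without EV 2.

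Superoxide dismutases convert superoxide to hydrogen peroxide, which catalase then removes. Sod3 (ENSMUSG00000072941, chromosome 5, 52363791 to 52371418), the extracellular dismutase, had 1.16 (EV 1) and 0.748 CPM (EV 2) with the empty vector, 3.96 CPM in TC, and 8.89, 7.22 and 6.30 CPM with TC + ATA. It rose 4.15-fold from a low level (log2 fold change 2.05, SE 0.28, edgeR adjusted p = 0.000683), on 87 and 57 counts in EV and 275 in TC. Every TC-expressing library lay above both EV libraries, and the TC library was the lowest of the 4. Cat, the peroxisomal catalase gene, rose by a log2 fold change of 0.59 (edgeR adjusted p = 0.00128). The cytosolic Sod1 and the mitochondrial Sod2 had 0.30 and −0.090 (edgeR adjusted p = 0.117 and 0.562). Sod1 had 0.47 without EV 1 and 0.13 without EV 2.

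The metallothioneins, small metal-binding proteins, were not called. Mt1 had a log2 fold change of −0.31 (edgeR adjusted p = 0.149), which was −0.11 without EV 1 and −0.50 without EV 2. Mt2 was counted at 0.816 and 0.525 CPM in EV and 0.432 CPM in TC, and 432 of its 588 exonic bases overlap a gene on the opposite strand, where reads can be lost or shared in counting.

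Per unit of length, the order of the genes changed with the fusion. In EV the highest levels, in RPKM (CPM per kilobase of exons in GENCODE M21), were those of Txn1 (838), Prdx1 (171), Mt1 (139), Gstp1 (135) and Gsto1 (127). Between neighbours in this order from Prdx1 to Gsto1, and on to Gpx4 (118) and Gsta4 (97.5), the ranges of the EV libraries overlapped, so that only Txn1 stood apart from the gene next to it. In TC, Gsto1 (536) and Gsta4 (392) followed Txn1 (919) directly, and in TC + ATA the order of Gsta4 (474) and Gsto1 (457) was turned, with no overlap between their libraries. Cdo1 went from place 29 in EV to place 38 in TC, and Cth from place 32 to place 21.

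Of the 23 calls in TC versus EV, 13 were kept in every alternative setting, namely those of Hmox1, Gclm, Gsr, Txnrd1, Cdo1, Csad, Cth, Gsta4, Gstm5, Gsto1, Prdx6, Sod3 and Cat. The other 10, with log2 fold changes between −0.73 (Mgst3) and 0.62 (Gpx4), were lost in at least 1 setting. All of these 10 except Gstm1 and Mgst3 lost their call with the replicate number as a block. Another scaling ended the calls of Gclc, Gss, Srxn1 and Mgst3, and DESeq2 that of Gss. Gclc, Gss and Srxn1 also lost theirs when only the EV and TC libraries were fitted. Over the fits that each lack 1 TC + ATA replicate, the edgeR adjusted p ranged from 0.0522 to 0.0605 for Gclc, from 0.0793 to 0.100 for Gss, from 0.0698 to 0.0914 for Srxn1, from 0.0801 to 0.0959 for Mgst3 and from 0.0628 to 0.0798 for Gpx1. The Gstm1 call was lost without TC + ATA replicate 2 or 3 (edgeR adjusted p = 0.0534 and 0.0601), and those of Slc7a11 and Gpx4 without replicate 3 (edgeR adjusted p = 0.0538 and 0.0533). Nfe2l2 and Slc3a2 lost theirs when only the EV and TC libraries were fitted (edgeR adjusted p = 0.131 and 0.0930).

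Other genes gained a call in TC versus EV when 1 EV library was left out, a fit whose spread comes from the TC + ATA libraries alone. Without EV 1, the log2 fold changes of Txn1 (0.40), Prdx1 (0.65), Sod1 (0.47), Gstp1 (0.38) and Gstm2 (0.23) passed the test, with edgeR adjusted p-values up to 0.0408. Without EV 2, those of Sod1 (0.13), Gpx7 (−0.33), Mt1 (−0.50) and Prdx4 (−0.41) passed, with edgeR adjusted p-values up to 0.0340. Of these 8 genes, Sod1 was called without either EV library.

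In TC + ATA versus TC, which addressed what ATA did in cells that express the fusion, 1 of the 39 genes rose and 0 fell, against 0.426% and 0.156% of all genes tested (0.583% in either direction). It shares the TC library with TC versus EV. At an unadjusted p under 0.05 there were 10 of the 39, against 9.61% of all genes. DESeq2 called 4 of the genes higher and 1 lower, where it called 236 and 84 of the 14350 genes it tested. The gene called was Gstm2, with a log2 fold change of 0.69 (SE 0.12, 1.61-fold, edgeR adjusted p = 0.0429). It had 25.2 CPM in TC and 40.9, 41.9 and 39.3 CPM in TC + ATA, so that the treated libraries lay above the TC library and above both EV libraries. The call was lost without each TC + ATA replicate in turn (adjusted p from 0.173 to 0.196 from edgeR). The median log2 fold change was 0.12 over the 39 genes and 0.00 over all genes.

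The next genes did not pass. Mgst1 had a log2 fold change of 0.99, from 3.31 CPM in TC to 5.82, 6.45 and 7.52 CPM in TC + ATA (edgeR adjusted p = 0.0709). Gstm1 had 0.65, from 70.1 CPM in TC to 114, 109.5 and 106 CPM (edgeR adjusted p = 0.0872). Both genes encode transferases, and for both the 3 treated libraries lay above the TC library. Cth had −0.38 (edgeR adjusted p = 0.0729), with the treated libraries below the TC library and still far above EV. Sod3, Gpx1, Slc7a11 and Txnrd1 had 0.91, −0.42, −0.35 and −0.23, at edgeR adjusted p-values of 0.246, 0.399, 0.522 and 0.399. For Cdo1, Hmox1, Gsr and Prdx6 the log2 fold changes were 0.085, 0.071, −0.015 and −0.064.

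This count depended on which libraries set the spread. When only the TC and TC + ATA libraries were fitted, 12 of the genes were called higher and 5 lower. That fit also called more of all genes, 795 higher and 633 lower of 18000, against 79 and 29 of 18539 in the main fit. The 5 were Txnrd1, Cth, Gsto1, Gpx1 and Gpx4, with log2 fold changes between −0.41 and −0.22. The 12 were Gclc, Gclm, Gsta4, Gstm1, Gstm2, Mgst1, Gpx8, Prdx1, Prdx4, Sod3, Cat and Mt1, with log2 fold changes between 0.18 and 1.01. In this fit the spread comes from the 3 TC + ATA libraries alone, and the TC library is assumed to vary as they do.

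Between TC + ATA and EV, 22 of the 39 genes were higher and 5 lower, where 18.0% of all genes tested were higher and 18.6% lower (36.6% in either direction). Changes of at least 1 on the log2 scale were called for 10 of the 39 genes, against 10.2% of all genes. The median log2 fold change was 0.37 over the 39 genes and −0.01 over all genes. With scaling by library size 20 of the genes were higher and 5 lower, while over all genes the split went from 3340 higher and 3449 lower to 2711 and 4384. Without EV 1 or without EV 2 a single EV library was left, and more of all genes were called in both directions. This comparison shares the EV libraries with TC versus EV, so the values are only set side by side. Cth had a log2 fold change of 2.70 here and 3.08 in TC versus EV, Cdo1 had −3.98 and −4.06, and Csad had −0.75 and −1.01. Gsta4 had 2.28 and 2.01, Gsto1 had 1.84 and 2.07, and Sod3 had 2.96 and 2.05. Hmox1, Gclm, Txnrd1 and Prdx6 had 1.43, 1.22, 1.02 and 1.33 in TC + ATA versus EV. Gstm5 had −0.95 and Nfe2l2 had 0.49.

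Several genes that were not called in TC versus EV were called here. Gstm2 had a log2 fold change of 0.79 (edgeR adjusted p = 0.000150) and Mgst1 of 0.92 (edgeR adjusted p = 0.00114). Gsta1 had 1.53 (SE 0.44, edgeR adjusted p = 0.0242) on 1.78, 0.903 and 0.733 CPM in the treated libraries, and without TC + ATA replicate 1, the highest, it was 1.06 (edgeR adjusted p = 0.0638). The Gsta1 call was also lost without EV 2 (edgeR adjusted p = 0.0527). Prdx1, Sod1, Gpx8 and Gstt1 had 0.53, 0.34, 0.23 and 0.89, at edgeR adjusted p-values of 0.0161, 0.0224, 0.0205 and 0.0346. These 4 calls were lost without each TC + ATA replicate in turn, with adjusted p-values from 0.0507 to 0.0964 from edgeR, and Gstt1 also lost its call without either EV replicate (edgeR adjusted p = 0.0846 and 0.0625). Without EV 2, Prdx1 and Sod1 had 0.28 and 0.18. Over all alternative settings Prdx1 ranged from 0.28 to 0.82 and Sod1 from 0.18 to 0.51.

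The remaining calls were smaller. Slc3a2, Srxn1, Gclc, Gsr, Cat and Gpx4 had 0.37, 0.43, 0.59, 0.57, 0.80 and 0.36, and Gss and Mgst3 had −0.40 and −0.50. The calls of Gpx4 and Mgst3 were near the threshold (edgeR adjusted p = 0.0465 and 0.0452). Gpx4 moved to 0.15 without EV 2, and Mgst3 to −0.14 without EV 1, where its call was lost. Over all alternative settings Gpx4 ranged from 0.15 to 0.62 and Mgst3 from −0.80 to −0.14. Both calls were lost without each TC + ATA replicate in turn (adjusted p up to 0.121 and 0.154 from edgeR). Slc7a11, Gpx1 and Gstm1, which were called in TC versus EV, had 0.24, 0.13 and 0.15 in TC + ATA versus EV and did not pass (edgeR adjusted p = 0.175, 0.465 and 0.279). For these 3 genes the TC + ATA and EV libraries overlapped. The test of TC + ATA versus TC itself was not passed by any of the 3.

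Calls were also gained against EV in this comparison when 1 EV library was left out. Without EV 1, Slc7a11 (0.42), Txn1 (0.45), Gstm1 (0.33), Gstp1 (0.31), Gpx1 (0.38), Gpx3 (1.21), Prdx4 (0.21) and Mt1 (0.11) passed as higher. Without EV 2, Gstp1 (−0.12), Prdx4 (−0.17) and Mt1 (−0.28) passed as lower, so that the direction of these 3 depended on which EV library was kept.

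Further genes of the same pathways were read from lists of 12 NRF2 regulators, 22 other NRF2 targets and 6 other groups. The lists too were chosen with earlier results of these data known, so their shares describe the lists and test nothing. As a background for the counts that follow, 28.0% of all genes tested were called in TC versus EV (39.7% above a mean of 5 CPM), 14.8% as higher and 13.2% as lower. Among the 11 regulators tested, 3 rose and 1 fell (36.4% called, between these backgrounds). The small MAF proteins are the partners of NRF2 on DNA, and of their genes Maff rose from 19.4 and 18.3 CPM in EV to 86.1 CPM in TC (log2 fold change 2.19, edgeR adjusted p = 4.95e-07) and Mafk from 29.1 and 27.3 to 100.2 CPM (log2 fold change 1.83, edgeR adjusted p = 1.09e-06). The small MAF gene Mafg had 92.0 and 109 CPM in EV and 118 CPM in TC, and was not called (log2 fold change 0.24, edgeR adjusted p = 0.123). Sqstm1, whose product p62 binds KEAP1 and carries it to autophagy, rose by a log2 fold change of 1.29 (edgeR adjusted p = 2.96e-05).

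Of the 22 other NRF2 targets, 13 rose and 2 fell in TC versus EV (68.2% called, against 28.0% of all genes and 39.7% above 5 CPM). Their median log2 fold change was 0.68, against −0.03 over all genes. Nqo1, a quinone reductase and a standard readout of NRF2, had 100.1 (EV 1) and 75.4 CPM (EV 2) with the empty vector, 141 CPM in TC, and 209, 198 and 203 CPM with TC + ATA. It rose by 0.68 on the log2 scale in TC versus EV (SE 0.14, edgeR adjusted p = 0.00621). The difference between TC + ATA and TC was 0.53 and did not pass (edgeR adjusted p = 0.183). The groups did not overlap in Nqo1, and the treated libraries were the highest. Aldh3a1, an aldehyde dehydrogenase, Taldo1 of the pentose phosphate pathway, the heme transporter Slc48a1 and the exporter Abcc4 rose by 1.79, 1.30, 1.27 and 1.20 on the log2 scale, at edgeR adjusted p-values of at most 0.000194.

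The glutathione turnover list had 5 genes higher and 1 lower of 9 (66.7% called, against 28.0% of all genes and 39.7% above 5 CPM). Chac1, which degrades glutathione inside the cell, rose from 38.7 and 39.2 CPM to 147 CPM (log2 fold change 1.92, edgeR adjusted p = 7.24e-07). The peptidases Anpep and Dpep1, which work on glutathione breakdown products outside the cell, rose by 2.24 and 1.41 on the log2 scale. The list of other transferases also holds the chloride channel family genes Clic1 and Clic4 and the prostaglandin synthase gene Ptges. Of its 18 genes tested 3 rose and 2 fell, a share (27.8%) at the 28.0% of all genes. Its largest changes were Gsta3 at 3.61, Gsto2 at 2.65 and Mgst2 at −1.18 among called genes above a mean of 5 CPM. The sulfur amino acid list had 4 higher and 3 lower of 18 (38.9% called, between the 28.0% of all genes and the 39.7% of genes above 5 CPM). Its largest change was that of Suox, which encodes sulfite oxidase, the last step of cysteine oxidation to sulfate (log2 fold change 1.65, edgeR adjusted p = 2.74e-05).

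Of 20 other peroxidase, thioredoxin and glutaredoxin genes, 5 were called in TC versus EV and all 5 fell, a share (25%) below the 28.0% of all genes called in either direction and above the 13.2% called as lower. Txnip, which binds and inhibits thioredoxin, fell from 62.1 and 63.4 CPM in EV to 23.4 CPM in TC (log2 fold change −1.42, edgeR adjusted p = 5.46e-06). Glutaredoxin Glrx and the sestrins Sesn3 and Sesn1 fell by log2 fold changes of −1.47, −1.64 and −1.12. Zinc and metal response genes had 3 called of 11, all higher, a share (27.3%) near the 28.0% of all genes, led by the zinc exporter Slc30a4 (1.26). The ATF4 amino acid response also governs Slc7a11, Chac1 and Cth. Of its 14 genes, 9 rose and 2 fell, all by less than 1 on the log2 scale (78.6% called, against 28.0% of all genes and 39.7% above 5 CPM).

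In TC + ATA versus TC, where 0.583% of all genes were called, 1 of the 22 other NRF2 targets (4.55%) and 1 of the 20 other peroxidase, thioredoxin and glutaredoxin genes (5%) rose, and the other 6 lists held no call. These were Ephx1 and Txnip. Both, picked out after their values were seen, had 0.68 (edgeR adjusted p = 0.0316) and 0.72 (edgeR adjusted p = 0.00759). Txnip had 38.9, 37.8 and 39.0 CPM in the treated libraries, between the TC and EV levels, and Ephx1, which encodes microsomal epoxide hydrolase, had 103 and 86.2 CPM in EV, 172 CPM in TC, and 280.4, 274 and 268 CPM in TC + ATA. Both calls were lost without each TC + ATA replicate in turn, with adjusted p from edgeR of 0.160, 0.180 and 0.182 for Ephx1 and of 0.0523, 0.0567 and 0.0815 for Txnip.

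**Figure D5:**
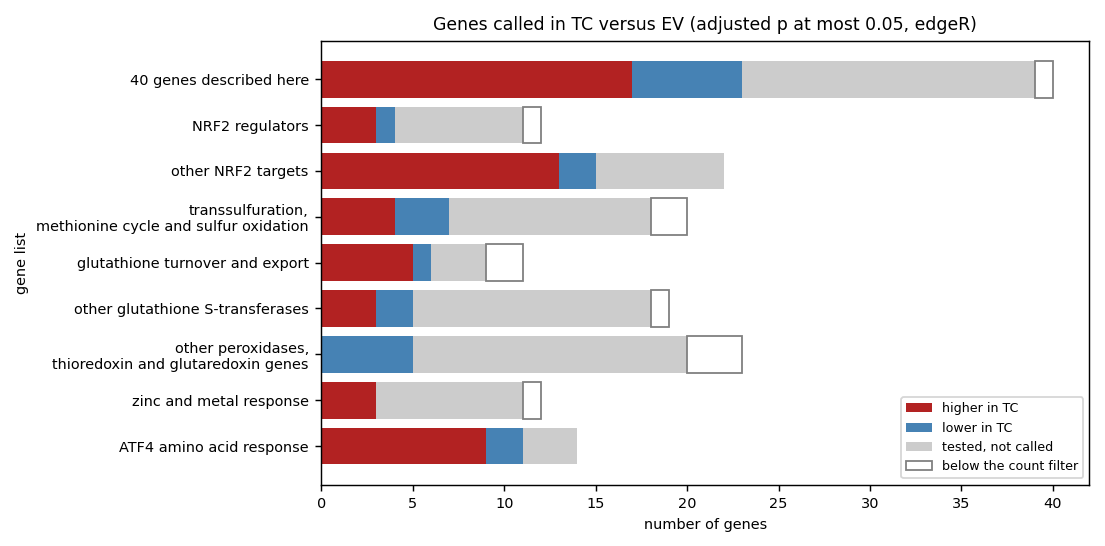
Bars count the genes of each list that were higher, lower or not called in TC versus EV at an adjusted p of 0.05, and those below the count filter. The 40 genes have 17 higher and 6 lower, the other NRF2 targets 13 and 2, and the other peroxidase, thioredoxin and glutaredoxin genes 0 and 5.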

How the data were processed

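Bulk RNA-Seq of 6 NIH3T3 libraries was analysed. The authors selected poly(A) RNA (NEBNext Ultra II kit), obtained paired-end reads from an Illumina instrument, aligned them to GRCm38.p6 (mm10) with HISAT2 2.2.1 and counted reads per gene with featureCounts in Galaxy. The deposited values are raw counts per Ensembl gene, not normalized. The annotation release and the strand setting of the counting are not given in the sources used here. Identifiers were matched to symbols, positions and exonic lengths in GENCODE M21 (GRCm38), which holds 55141 of the 55401 genes.

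Counts were fitted in R 4.3.3 with edgeR 4.0.16 (TMM, filterByExpr, glmQLFit and glmQLFTest, all 6 libraries, group as the only term, 3 residual degrees of freedom, Benjamini-Hochberg adjustment), and genes with an adjusted p of at most 0.05 were called. The study's own limit of 2 on the absolute log2 fold change is given beside the count. Standard errors were derived from the F statistic. DESeq2 1.42.0 was an alternative, with other scalings and filters, a fit of the compared groups only, a replicate block and fits that each lack 1 replicate of EV or TC + ATA. A fit without the TC library was added after the data were seen. The fits were tested on simulated data.

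Library totals are given with the results, and at that depth counting error is small for all but the lowest genes. The genes and lists were chosen with earlier results of these data known. By rule, values in every library are given for Nfe2l2, Keap1, each gene called with an absolute log2 fold change of at least 1 in TC versus EV or TC + ATA versus EV and each gene called in TC + ATA versus TC, and each list is represented by at most the 4 largest genes called in TC versus EV with a change of at least 1 and a mean of at least 5 CPM, with Nqo1 added. Other genes with values in every library, such as Txn1, were added. Promoters came from RefSeq (GRCm38.p6). Protein sequences were not used here.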

Additional observations from a re-analysis of the deposited data

How the results depend on the processing

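TC has 1 library and EV has 2, which limits the precision of every comparison. Where an EV replicate was left out, the lone EV library was assumed to vary like the TC + ATA libraries. In each comparison more of all genes were called in those fits than with every library. In TC versus EV, leaving out each replicate in turn gave 12 to 22 of the 40 genes higher and 3 to 9 lower. In TC + ATA versus TC it gave 0 to 12 higher and 0 to 5 lower, and in TC + ATA versus EV 16 to 29 higher and 4 to 8 lower. In TC + ATA versus TC, scaling by library size gave 2 higher, and no filter on low counts gave 4 higher and 2 lower. DESeq2 gave 4 higher and 1 lower, and a fit of the compared groups only gave 12 higher and 5 lower. Over all genes these settings called, in the same order, 72 higher and 22 lower, 242 and 108, 236 and 84, 795 and 633.

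The pathway lists had 40 genes higher and 16 lower in TC versus EV, 2 higher and 0 lower in TC + ATA versus TC, and 48 higher and 20 lower in TC + ATA versus EV. Over all 18539 genes tested, the counts in the same order were 2735 and 2456, 79 and 29, and 3340 and 3449. The settings that follow moved these counts over all genes too. In TC versus EV they were 2072 and 3159 with scaling by library size, and 1858 and 1808 with the compared groups only. In TC versus EV, scaling by library size gave 37 higher and 26 lower, a fit of the compared groups only gave 10 lower, and leaving out replicates gave 11 to 26 lower. In TC + ATA versus TC, no filter gave 6 higher and 2 lower, DESeq2 gave 6 higher and 1 lower, a fit of the compared groups only gave 18 higher and 15 lower, and leaving out replicates gave 0 to 18 higher and 0 to 16 lower. In TC + ATA versus EV, leaving out replicates gave 16 to 32 lower. All 21 named genes of the lists kept their calls against EV, with and without ATA, under every alternative. All but Nqo1 and Ephx1 were named for a called log2 change of at least 1 in TC versus EV. Their kept calls therefore describe these genes and not the lists.

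Replicate numbers 1 and 2 occur in both EV and TC + ATA. The deviations from the group means were not correlated between same-numbered libraries (−0.0290 and −0.0861 across genes), and the pairing was not used. With 2 EV libraries the EV deviations mirror each other, so the 2 values are not separate checks. Whether same-numbered libraries were handled together was not tested. With the number as a block, 10 of the 39 genes tested were higher and 5 lower in TC versus EV. Over all genes the block called 1717 higher and 1467 lower there, against 2735 and 2456 in the main fit. Between TC + ATA and TC, 0 of the 39 genes were higher, and the lists held 0 calls higher. All genes had 32 higher and 8 lower there, against 79 and 29. Between TC + ATA and EV the block ended the calls of Gpx4, Gpx8, Gstt1, Sod1 and Mgst3. All genes had 2450 higher and 2195 lower there, against 3340 and 3449. The Gstm2 call had an adjusted p of 0.116 from edgeR under the block. Log2 fold changes that changed sign under the block, all in TC + ATA versus TC, were those of Gstp1 (0.089), Prdx6 (0.033), Sqstm1 (0.00058) and Taldo1 (0.12).

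The other changes of sign were all of values that had not passed the test, and the cause was not tested. In TC versus EV, leaving out EV 2 and leaving out EV 1 gave −0.10 and 0.40 for Txn1, −0.026 and 0.23 for Gstm2, −0.068 and 0.38 for Gstp1, −0.0093 and 0.097 for Gpx8, −0.70 and 0.48 for Gpx3, and −0.33 and 0.037 for Gpx7. Scaling by library size gave −0.00025 for Gstm2 and −0.057 for Gpx8. Between TC + ATA and TC, leaving out TC + ATA replicates gave −0.033 to 0.0067 for Gsr, −0.029 to 0.17 for Cdo1, −0.0036 to 0.073 for Sod2 and −0.17 to 0.18 for Mt2, and scaling by library size gave 0.0051 for Gsr and 0.0043 for Taldo1. Between TC + ATA and EV, leaving out EV 2 and leaving out EV 1 gave −0.037 and 0.45 for Txn1, −0.012 and 0.33 for Gstm1, −0.12 and 0.31 for Gstp1, −0.094 and 0.38 for Gpx1, −0.17 and 0.21 for Prdx4, −0.19 and 0.16 for Gpx7, −0.12 and 0.018 for Sod2, and −0.28 and 0.11 for Mt1. Prdx4 had −0.016 without TC + ATA replicate 2, −0.0046 without a filter and −0.074 with scaling by library size, which gave −0.0085 for Keap1 and −0.0028 for Gstp1. With a filter of 1 CPM in 2 libraries Gpx7 had 0.0041.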
